A study of Mus musculus with 12 samples.

Results

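Collagen chain genes were taken as every gene whose mouse symbol has the form Col, a number, a, and a number, such as Col1a1. This gave 39 of the 17362 genes in the expression table, and all 39 passed the filter on low values. They fall into 8 classes: 11 chains of fibrillar collagens, 5 of collagen IV, 5 of collagen VI, 7 of fibril-associated collagens, 3 of collagens VIII and X, 2 of collagens XV and XVIII, 3 of transmembrane collagens, and 3 others (VII, XXVI and XXVIII). The study sorted 4 populations from the marrow of B6 mice that had received no treatment, after tibia, femur and iliac bone had been crushed, and sequenced 3 libraries of each. By the gates given, CD200-high capillary cells carried CD31, Sca1 and much CD200 and lacked EMCN and CD45, and type H vessel cells were EMCN+, Sca1+, CD31+ and CD45-. The other arterial cells were CD200-, Sca1+, CD31+ and CD45-, and the sinusoidal cells were CD31+, Sca1+ and CD45-. The triplicates were biological and came from 6 mice, and the labels number the mice 1 to 3 in each population. All groups share the genotype and lack of treatment, the sorts rest on surface antigens alone, and no age was given.

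Collagens are secreted matrix proteins whose chains wind into a triple helix, with each chain encoded by its own gene. Fibrillar collagens such as I, II, III, V and XI assemble into the tensile fibrils of bone, cartilage and soft tissue. Collagen IV instead forms the sheet-like network of basement membranes, the layer on which endothelial cells sit. Collagen I is the main protein of the bone matrix and is made by osteoblasts, while collagens II, IX and X are known from cartilage.

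Values are log2 counts per 1e6 reads (CPM) of an effective library size, with a small constant added to each read count, and the underlying whole reads could be recovered exactly. Libraries held 7.33 to 21.6 M reads (M, 1e6 reads) over the listed genes. Differences between populations were tested with limma over all 17086 genes that passed the filter, and a gene was called at an adjusted p under 0.05. Transcripts of the sorting antigens did not always follow the gates. In the libraries labelled sinusoidal and gated as Sca1+, Ly6a, which encodes Sca1, averaged 4.05 ± 0.71 log2 CPM (SD, n = 3), while CD200-high libraries averaged 10.19 ± 0.35, arterial ones 9.78 ± 0.13 and type H ones 8.92 ± 0.39. Emcn averaged 8.26 ± 0.42 in the CD200-high libraries, which were gated as EMCN-, and 9.02 ± 0.03 in type H. Ptprc, which encodes CD45, averaged 7.41 ± 0.23 in arterial, 6.54 ± 0.31 in sinusoid-labelled, 5.38 ± 0.65 in CD200-high and 3.98 ± 0.57 in type H libraries, all gated as CD45-. Cd200 averaged 7.68 ± 0.11 in the arterial libraries, gated as CD200-, and 9.81 ± 0.02 in CD200-high. Summed over 16 genes, pan-endothelial markers took 0.944 to 1.0% of reads in type H, 0.315 to 0.626% in CD200-high, 0.194 to 0.260% in arterial and 0.0281 to 0.0293% in the sinusoid-labelled libraries. Because the last group is so low, differences that turned or lost their call under an alternative scaling, called endothelial scaling here, are given with that result. In it every library is shifted until the median of these 16 markers is equal. That scaling moves every gene by -5.28 on the log2 scale in CD200-high against sinusoid-labelled, -6.03 in type H against sinusoid-labelled, -4.04 in arterial against sinusoid-labelled, -1.98 in type H against arterial, -1.23 in CD200-high against arterial and 0.75 in CD200-high against type H. In such sorted bulk samples, fewer cells of a type and less RNA per cell cannot be told apart.

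Most collagen chains differed among the populations. In the F test over the 4 populations, 28 of the 39 chains (71.8%) were called, against 37.4% of all genes tested. Fibrillar chains (10 of 11), the chains of collagens XV and XVIII (2 of 2) and the others (VII, XXVI and XXVIII, 3 of 3) were called nearly throughout. Of the collagen IV chains 2 of 5 (40%) were called, and of the transmembrane chains 1 of 3 (33.3%), each near the share of all genes.

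Type H cells had the lowest level of many chains. Against arterial cells, 24 of 39 chains were called (20.7% of all genes were), 23 of them lower in type H (12.7% of all genes) and 1 higher (7.96%). Against CD200-high cells, all 13 called chains were lower in type H and higher in CD200-high (13.0% of all genes were called with 6.66% higher in CD200-high and 6.35% lower). Lower in type H than in each of the other 3 populations were 11 chains, 28.2% of the members against 2.22% of all genes: Col1a1, Col1a2, Col3a1, Col5a1, Col5a2, Col11a1, Col11a2, Col13a1, Col22a1, Col24a1 and Col28a1. The median of the 39 differences was -4.75 against arterial (-4.39 with chains at 0 reads held at a floor of 3 reads per library), where the median of all genes was -0.20.

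CD200-high cells stood at the opposite end for a subset of these. Higher there than in each other population were 9 chains (23.1% against 1.57% of all genes): Col1a1, Col1a2, Col5a1, Col5a2, Col11a1, Col11a2, Col13a1, Col22a1 and Col24a1, although under endothelial scaling all 9 turned lower than in the sinusoid-labelled libraries. Against arterial cells 14 chains were called (12.9% of all genes), 10 higher in CD200-high (4.75%) and 4 lower (8.15%). That count rests in part on CD200-high replicate 1, without which it was 9, with 7 higher and 2 lower. Under endothelial scaling it was 17, with 6 higher and 11 lower.

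Against the sinusoid-labelled libraries, 16 chains were higher in CD200-high (28.7% of all genes were called, 14.1% higher), and 11 were higher in arterial (10.2% called, 8.09% higher and 2.14% lower). Type H against sinusoid-labelled was mixed, with 6 chains higher and 11 lower (28.6% of all genes called, 13.9% higher and 14.6% lower). Under endothelial scaling 13 of the 16, 3 of the 11 and 5 of the 6 higher chains reversed. With that scaling the calls against sinusoid-labelled became 1 higher and 18 lower in CD200-high, 3 higher and 10 lower in arterial, and 28 lower with none higher in type H. Lowest in the sinusoid-labelled libraries against each other population were Col4a1, Col4a2, Col6a3, Col15a1, Col16a1 and Col18a1 (15.4% of members against 4.86% of all genes), and of these Col4a1, Col6a3, Col15a1, Col16a1 and Col18a1 reversed in at least 1 of the 3 comparisons under endothelial scaling, while Col4a2 lost its call against type H. Arterial cells were highest against each other population for Col9a2 and Col26a1 (5.13% against 1.0% of all genes).

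**Figure D1:**
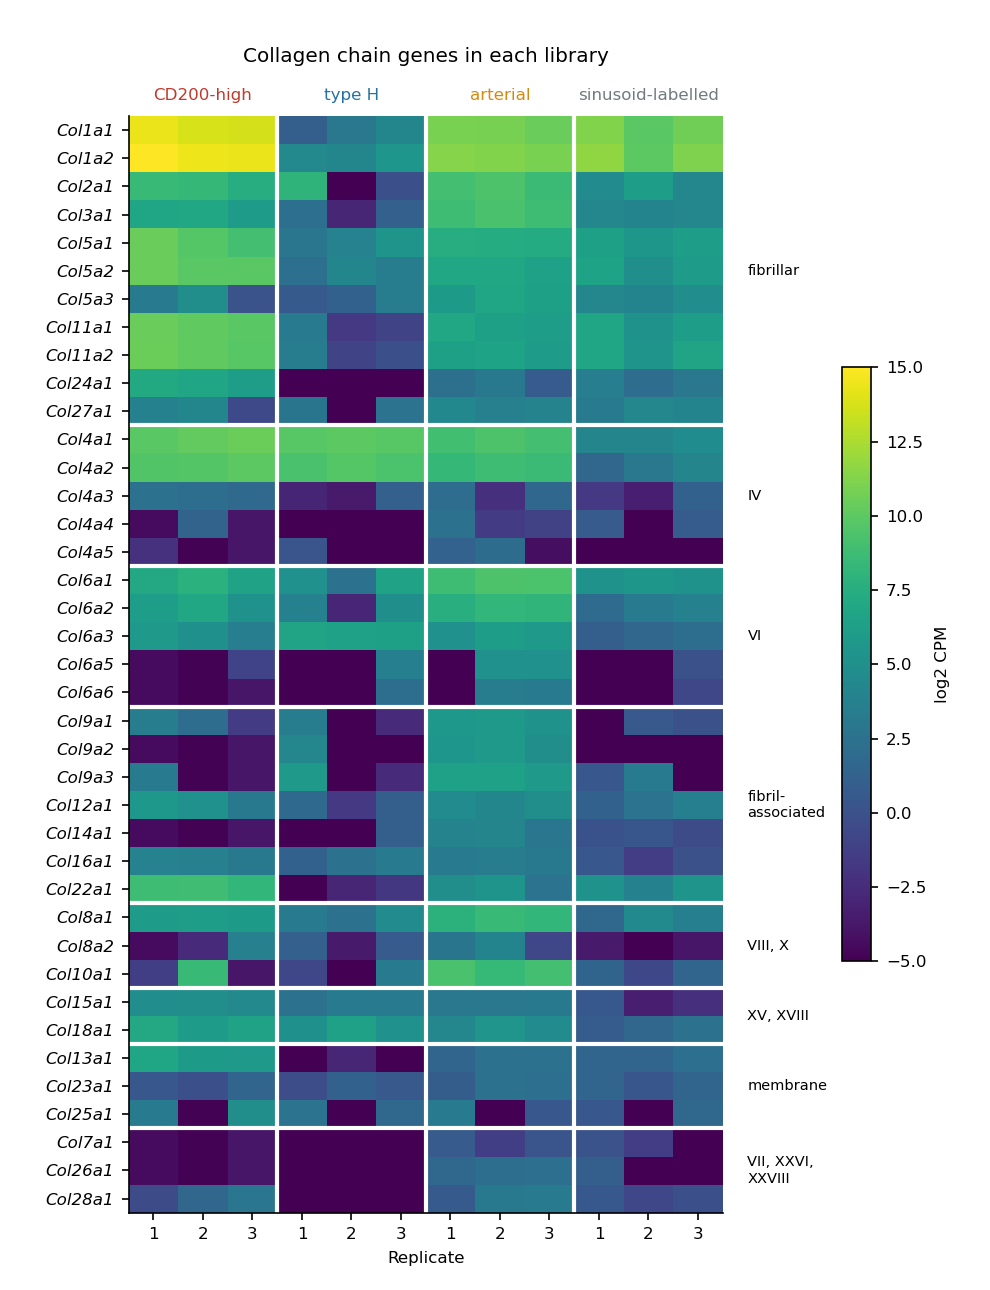
Level of each of the 39 collagen chain genes (rows, grouped by class) in each of the 12 libraries (columns), as log2 CPM, with values at or below -5 sharing the darkest colour. The fibrillar block is brightest in CD200-high and darkest in type H, Col4a1 and Col4a2 are bright in all but the sinusoid-labelled libraries, and most cartilage collagens are bright in arterial libraries and type H replicate 1; the contrast of CD200-high and of Col4a1 in type H with the sinusoid-labelled libraries reverses or shrinks under endothelial scaling.

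In CD200-high libraries collagen transcripts took 5.47, 4.21 and 3.89% of all reads. Type H libraries gave 0.204, 0.214 and 0.191%, arterial libraries 0.919, 1.0 and 0.760%, and the sinusoid-labelled ones 0.684, 0.273 and 0.492%. The CD200-high group was apart from all others and type H was lowest, with arterial and sinusoid-labelled libraries between them and not overlapping each other. The make-up differed too: Col1a1 and Col1a2 held 82.5 to 85.8% of collagen reads in CD200-high and 81.7 to 90.2% in sinusoid-labelled libraries, 44.3 to 52.4% in arterial, and 1.13 to 3.25% in type H. Col4a1 and Col4a2 held 70.2 to 87.3% of the collagen reads of type H, 9.22 to 11.8% in arterial, 2.68 to 5.68% in CD200-high and 0.324 to 1.07% in sinusoid-labelled libraries. As a share of all reads, the collagen IV pair was alike in CD200-high (0.147 to 0.221%) and type H (0.143 to 0.187%), and these populations were far apart on collagen I instead, at 3.27 to 4.70% against 0.00230 to 0.00619%.

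**Figure D2:**
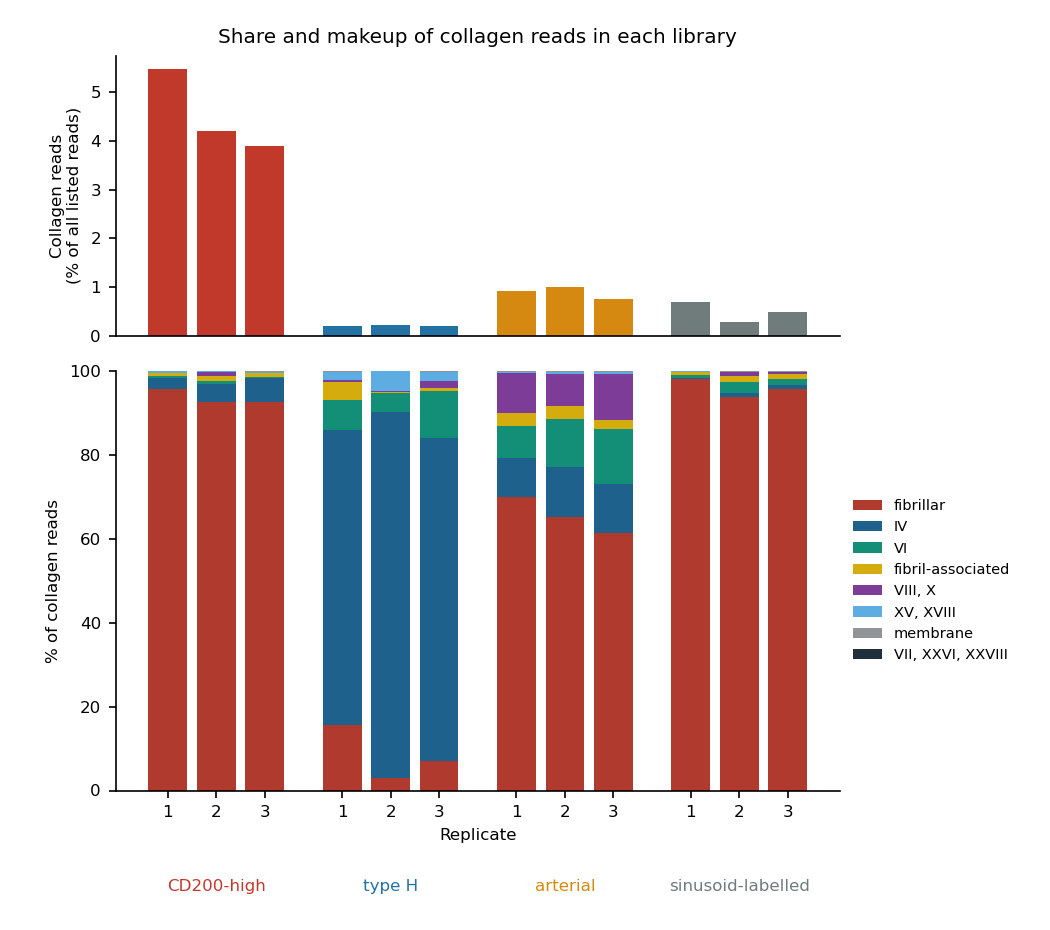
Collagen reads as a percentage of all listed reads (upper bars) and the percentage of collagen reads held by each of the 8 classes (lower stacked bars) in each library. Fibrillar chains hold 92.6 to 95.5% of collagen reads in CD200-high, 61.3 to 69.8% in arterial and 2.98 to 15.6% in type H, where collagen IV holds 70.3 to 87.3%.

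Markers of bone-forming cells moved with the collagen I chains. A list of 10 osteoblast and osteocyte genes, none of them a collagen and none at 0 in all 3 libraries of any population, took 6.09 to 7.54% of reads in CD200-high libraries, 0.0158 to 0.0828% in type H libraries, 0.508 to 0.740% in arterial and 0.431 to 0.764% in sinusoid-labelled libraries. All 10 were lower in type H than in CD200-high, and CD200-high had 3 higher than arterial and 7 higher than in sinusoid-labelled libraries before endothelial scaling. The shares of all genes called in these directions were 6.66, 4.75 and 14.1%. Bglap2, an osteocalcin gene that can share reads with its near-identical copy Bglap, averaged 14.89 ± 0.19 log2 CPM in CD200-high libraries, 3.42 ± 1.78 in type H libraries, 10.39 ± 0.25 in arterial and 11.03 ± 0.48 in sinusoid-labelled libraries (SD, n = 3). Bglap averaged 15.17 ± 0.20, 3.87 ± 1.86, 10.71 ± 0.23 and 11.33 ± 0.54 in the same order. Both osteocalcin genes together made up most of the summed share of the list in CD200-high libraries. The part of osteoblast transcripts in the collagen differences was not tested.

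**Figure D3:**
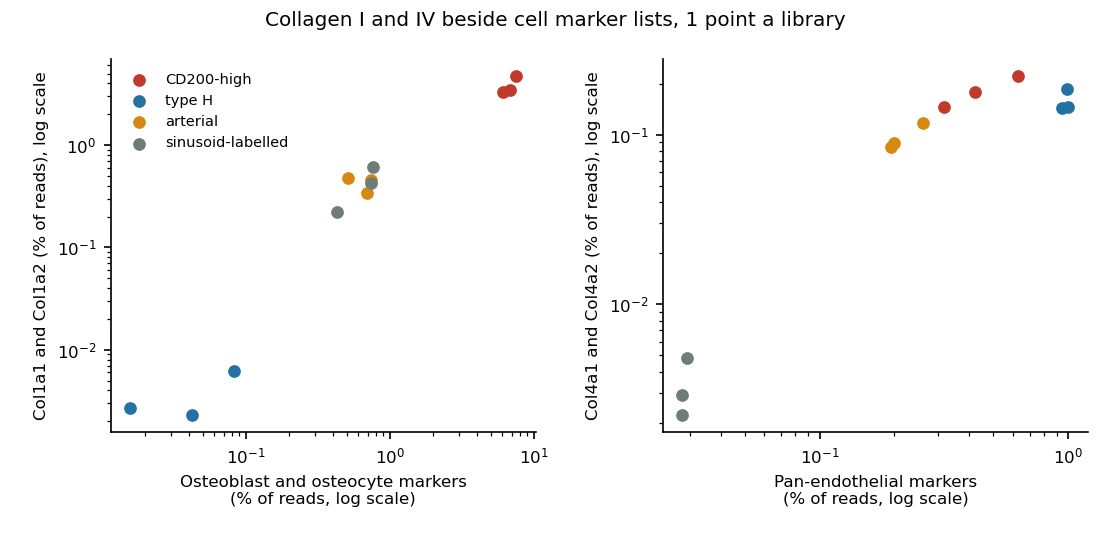
Each point is a library, coloured by population, on log axes. Left, the share of reads in Col1a1 and Col1a2 against the share in osteoblast and osteocyte markers; right, the share in Col4a1 and Col4a2 against the share in pan-endothelial markers. CD200-high libraries lie at the top right of the left panel and type H at its bottom left, while sinusoid-labelled libraries lie at the bottom left of the right panel. In CD200-high libraries most of the osteoblast and osteocyte share is Bglap and Bglap2.

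Among the fibrillar chains, those of collagen I were the most abundant. Col1a2, the alpha2 chain, measured 15.03, 14.53 and 14.43 log2 CPM in CD200-high libraries, 4.44, 4.15 and 5.54 in type H libraries, 11.39, 11.23 and 10.97 in arterial libraries and 11.70, 9.99 and 11.10 in sinusoid-labelled libraries. CD200-high and type H overlapped no other group, and the arterial and sinusoid-labelled ranges overlapped. The difference was 9.96 ± 0.41 (SE, adjusted p = 1.19e-07) between CD200-high and type H and 3.47 ± 0.41 (adjusted p = 0.000501) between CD200-high and arterial. Against sinusoid-labelled libraries it was 3.74 ± 0.41 (adjusted p = 5.26e-05), which turned to -1.54 under endothelial scaling. Type H was lower than arterial by a difference of -6.49 ± 0.41 (adjusted p = 3.72e-06).

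Col1a1, the alpha1 chain that supplies most of the collagen I trimer, followed the same order. It measured 14.38, 13.82 and 13.70 log2 CPM in CD200-high libraries, 1.06, 3.03 and 4.20 in type H libraries, 10.94, 10.92 and 10.46 in arterial libraries and 11.23, 9.87 and 10.67 in sinusoid-labelled libraries. Its difference between CD200-high and type H was 11.20 ± 0.61 (adjusted p = 1.12e-06), and between CD200-high and arterial it was 3.19 ± 0.61 (adjusted p = 0.00596). Arterial and sinusoid-labelled libraries differed by 0.19 ± 0.61 (adjusted p = 0.904), a sign that rests on a sinusoid-labelled library: it was -0.17 without replicate 2 (0.51 without replicate 1), and -3.86 under endothelial scaling. Col1a2 behaved likewise there, at 0.27 ± 0.41 (adjusted p = 0.771), -0.20 without that library, and -3.77 under endothelial scaling.

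Collagens V and XI are minor fibrillar collagens that co-assemble with I and II and set fibril diameter. Col5a2 measured 10.40, 9.91 and 9.85 log2 CPM in CD200-high libraries, 2.28, 4.20 and 3.41 in type H libraries, 6.96, 7.0 and 6.46 in arterial libraries and 6.56, 4.97 and 6.07 in sinusoid-labelled libraries. Only the arterial and sinusoid-labelled groups overlapped. CD200-high exceeded type H by 6.75 ± 0.47 (adjusted p = 5.69e-06) and arterial by 3.24 ± 0.47 (adjusted p = 0.00139), and its excess of 4.18 ± 0.47 over sinusoid-labelled (adjusted p = 6.53e-05) became -1.09 under endothelial scaling. The arterial minus sinusoid-labelled difference was 0.94 ± 0.47 (adjusted p = 0.272) and became -3.10.

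Col5a1 averaged 9.72 ± 0.68 log2 CPM in CD200-high, 7.39 ± 0.08 in arterial, 6.03 ± 0.40 in sinusoid-labelled and 4.02 ± 1.26 in type H libraries (SD, n = 3). Col11a1 averaged 10.14 ± 0.28, 6.5 ± 0.35, 6.08 ± 0.79 and 0.20 ± 2.62 in the same order, and Col11a2 10.16 ± 0.36, 6.31 ± 0.29, 6.27 ± 0.83 and 0.83 ± 2.36. All 3 chains were lower in type H and in arterial than in CD200-high. The calls against arterial were marginal for Col11a1 (adjusted p = 0.0281, and 0.0514 to 0.0870 without any 1 of the CD200-high or arterial libraries), for Col11a2 (0.0145, and 0.0541 without arterial replicate 3) and for Col5a1 (0.0134, and 0.0512 without CD200-high replicate 1). Under endothelial scaling those of Col11a1 (2.41, adjusted p = 0.0643) and Col5a1 (1.09, adjusted p = 0.179) were lost.

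Col24a1, a fibrillar chain known from developing bone, had 1573, 1619 and 496 reads in CD200-high, 0 in all 3 type H libraries, 89, 137 and 16 in arterial, and 215, 107 and 163 in sinusoid-labelled libraries. With 0 held at 3 reads per library, the mean CPM of CD200-high was at least 643-fold higher than that of type H (adjusted p = 6.42e-06).

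Other fibrillar chains did not peak in CD200-high cells. Col3a1, the collagen of reticular fibres and vessel walls, measured 8.78, 9.23 and 8.77 log2 CPM in arterial, 6.83, 6.96 and 6.07 in CD200-high, 4.22, 4.01 and 4.29 in sinusoid-labelled and 2.28, -2.85 and 1.16 in type H libraries. No 2 groups overlapped. The arterial minus CD200-high step was not called in the joint fit (CD200-high minus arterial -2.31 ± 0.96, adjusted p = 0.146), but it was at 0.00397 when only those 2 populations were fitted. A like fit of type H and sinusoid-labelled libraries lost the call of lower Col3a1 in type H (adjusted p = 0.0644). Col5a3 was lower in CD200-high than in arterial by -3.59 ± 1.04 (adjusted p = 0.0424), a call lost with the mouse number as a block (adjusted p = 0.0660), and lost without CD200-high replicate 1 or 3 (0.0712 and 0.0868) or any 1 arterial or sinusoid-labelled library (0.0586 to 0.123). Col27a1 was not called in any comparison (F test adjusted p = 0.286), with 4 to 482 reads in all but type H replicate 2, which had 0.

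Promoter sequences were available in the RefSeq table (GRCm38.p6) for 30 of the 39 chains, as 33 promoters. The 250 bases before the start were searched on both strands for the CCAAT box, spelled by its name, for the TATA box with the letters TATAAA, and for the GC box with the letters GGGCGG, none of which contains another. The CCAAT box was in 33.3% of the chain promoters and 33.9% of all 32851 promoters, the TATA box in 12.1% and 12.4%, and the GC box in 60.6% and 32.7%. Sequences of 3 chains that were highest in CD200-high, Col1a2 and both collagen XI chains, are shown because they moved together. Capitals mark these boxes or their reverse complements, all 3 run 5′ to 3′ on the plus strand, and they lie at chr6:4505368-4505617, chr3:114030290-114030539 and chr17:34038888-34039137.
Col1a2: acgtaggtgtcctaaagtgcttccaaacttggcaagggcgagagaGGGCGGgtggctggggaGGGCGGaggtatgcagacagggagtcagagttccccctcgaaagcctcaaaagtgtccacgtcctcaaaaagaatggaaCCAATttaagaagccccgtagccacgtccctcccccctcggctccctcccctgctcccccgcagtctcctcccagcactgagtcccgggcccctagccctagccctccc
Col11a1: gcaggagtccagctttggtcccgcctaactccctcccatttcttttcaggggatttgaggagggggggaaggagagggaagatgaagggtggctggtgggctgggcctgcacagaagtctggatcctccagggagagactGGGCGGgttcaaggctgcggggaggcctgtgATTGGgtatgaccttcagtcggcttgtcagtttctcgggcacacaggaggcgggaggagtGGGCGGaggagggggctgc
Col11a2: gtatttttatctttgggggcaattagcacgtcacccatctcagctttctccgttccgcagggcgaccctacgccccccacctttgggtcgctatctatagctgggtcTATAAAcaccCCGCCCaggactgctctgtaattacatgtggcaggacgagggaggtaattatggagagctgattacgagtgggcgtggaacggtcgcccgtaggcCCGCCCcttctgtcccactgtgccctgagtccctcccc
The Col1a2 sequence holds a CCAAT box starting 109 bases before the start, Col11a1 holds it on the opposite strand at 79, and Col11a2 instead holds a TATA box at 143. Such matches describe letters in a window and were not tested for binding.

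**Figure D4:**
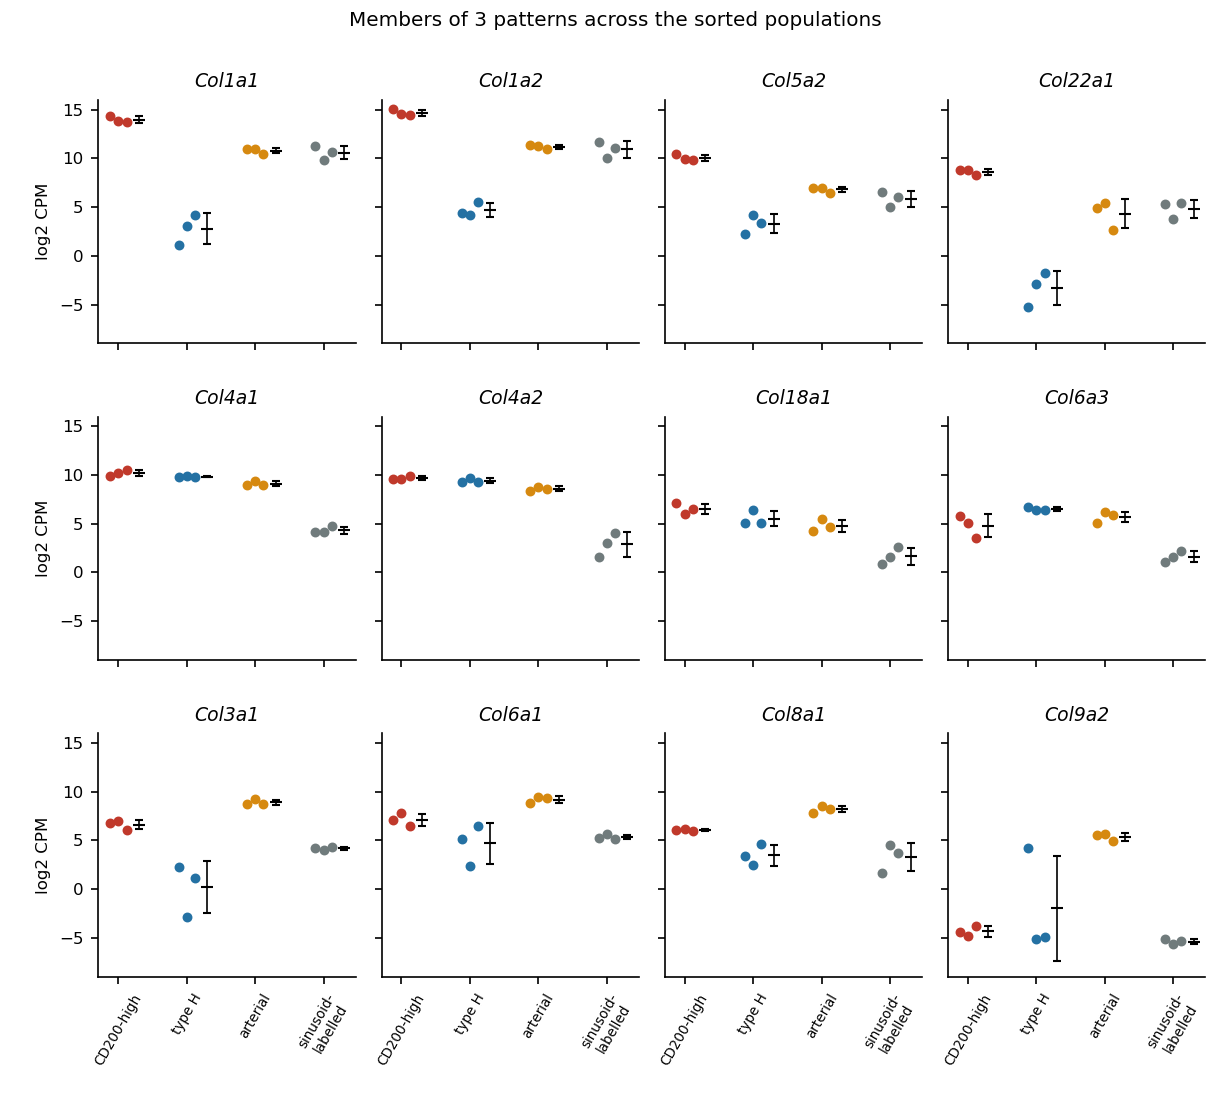
Log2 CPM of 12 chains in each library (points), with the mean and SD of the 3 libraries of each population (bars). Top, chains highest in CD200-high and lowest in type H; middle, chains lowest in the sinusoid-labelled libraries; bottom, chains whose arterial mean is highest. The position of the sinusoid-labelled group below CD200-high in the top row, and below type H for Col4a1, Col18a1 and Col6a3, reverses under endothelial scaling.

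Collagen IV chains separated the sinusoid-labelled libraries from the rest. Col4a1, which encodes the alpha1 chain present in nearly all basement membranes, measured 9.90, 10.19 and 10.47 log2 CPM in CD200-high libraries, 9.77, 9.92 and 9.80 in type H libraries, 8.96, 9.40 and 9.0 in arterial libraries and 4.14, 4.13 and 4.72 in sinusoid-labelled libraries. CD200-high and type H overlapped, and arterial was just below both. CD200-high minus type H was 0.36 ± 0.20 (adjusted p = 0.282). CD200-high minus arterial was 1.07 ± 0.20 (adjusted p = 0.00509) and became -0.17 under endothelial scaling, and type H minus arterial was 0.71 ± 0.20 (adjusted p = 0.0252) and became -1.27. The last call was also lost, at adjusted p from 0.0524 to 0.0902, without any 1 of the type H libraries or without arterial replicate 1 or 3. Against the sinusoid-labelled libraries the differences were 5.86 ± 0.20 for CD200-high (adjusted p = 9.72e-09), which became 0.58 and lost its call under endothelial scaling (adjusted p = 0.0652), 5.5 ± 0.20 for type H (adjusted p = 1.22e-08), which became -0.53 under endothelial scaling, and 4.79 ± 0.20 for arterial (adjusted p = 1.41e-07).

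Col4a2, its partner in the same trimer, measured 9.57, 9.62 and 9.93 log2 CPM in CD200-high libraries, 9.25, 9.71 and 9.33 in type H libraries, 8.33, 8.82 and 8.61 in arterial libraries and 1.58, 3.0 and 4.08 in sinusoid-labelled libraries. The differences from the sinusoid-labelled libraries were 6.82 ± 0.46 (adjusted p = 1.61e-06) for CD200-high, 6.55 ± 0.46 (adjusted p = 1.37e-06) for type H and 5.70 ± 0.46 (adjusted p = 1.84e-05) for arterial. Under endothelial scaling the type H difference fell to 0.52 and its call was lost (adjusted p = 0.156). CD200-high minus arterial was 1.12 ± 0.46 (adjusted p = 0.139) and type H minus arterial 0.85 ± 0.46 (adjusted p = 0.223), with -0.11 and -1.14 under endothelial scaling. The pan-endothelial marker shares given above were also lowest in the sinusoid-labelled libraries, and their part in the result was not tested.

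Col4a1 and Col4a2 lie head to head, and the RefSeq starts are 21 bases apart on opposite strands, each inside the other gene. The 250 bases searched before each start therefore do not overlap. Their RefSeq windows share 78 bases only because those windows also run past the starts. The 30 bases that span both starts, chr8:11312801-11312830 in GRCm38.p6, are printed on each strand because these chains had the same pattern in every comparison called for both. Capitals mark a GC box, which reads as its reverse complement from the other side. It lies between the starts, and so after the start of each gene, outside the bases searched.
Col4a2, plus strand: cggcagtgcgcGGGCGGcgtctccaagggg
Col4a1, minus strand: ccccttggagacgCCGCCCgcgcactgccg
Exons of these neighbours also overlap in the annotation, and whether reads were assigned by strand was not given in the sources used here. The same uncertainty holds for Col4a3, Col5a1, Col6a6, Col9a3, Col10a1, Col15a1 and Col22a1, whose exons overlap genes on the opposite strand. Col3a1 and Col7a1 overlap an annotated gene on their own strand, which strand assignment cannot separate.

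The remaining collagen IV chains, known from kidney, lung and other specialised basement membranes, were scarce. Col4a3 had 1 to 75 reads, Col4a4 0 to 98 and Col4a5 0 to 67 per library, and none of the 3 was called in the F test (adjusted p = 0.207, 0.214 and 0.172). Col4a4 had 0 reads in all 3 type H libraries and Col4a5 had 0 in all 3 sinusoid-labelled libraries.

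Collagens XV and XVIII are basement membrane collagens, and XVIII is the source of endostatin. Col18a1 measured 7.08, 6.01 and 6.52 log2 CPM in CD200-high libraries, 5.03, 6.45 and 5.11 in type H libraries, 4.26, 5.44 and 4.67 in arterial libraries and 0.86, 1.57 and 2.58 in sinusoid-labelled libraries. The first 3 populations overlapped their neighbours, and the sinusoid-labelled libraries lay below all of them. It was higher than sinusoid-labelled by 4.87 ± 0.55 in CD200-high (adjusted p = 5.88e-05), 3.86 ± 0.55 in type H (adjusted p = 0.000251) and 3.12 ± 0.55 in arterial (adjusted p = 0.00330), and these became -0.41, -2.16 and -0.92 under endothelial scaling. CD200-high minus arterial was 1.75 ± 0.55 (adjusted p = 0.0576) and CD200-high minus type H 1.01 ± 0.55 (adjusted p = 0.270).

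Col15a1 measured 4.84, 4.89 and 4.44 log2 CPM in CD200-high libraries, 2.42, 3.16 and 3.23 in type H libraries, 2.99, 3.02 and 3.10 in arterial libraries and 0.51, -3.30 and -2.19 in sinusoid-labelled libraries, where it had 25, 2 and 4 reads. It exceeded the sinusoid-labelled level by 6.39 ± 0.90 in CD200-high (adjusted p = 0.000297), by 4.70 ± 0.90 in arterial (adjusted p = 0.00584) and by 4.60 ± 0.90 in type H (adjusted p = 0.00246), and under endothelial scaling these became 1.11, 0.66 and -1.43, with the CD200-high and arterial calls lost (adjusted p = 0.342 and 0.589). CD200-high libraries lay above type H and arterial without overlap, but neither difference was called (1.79 ± 0.90, adjusted p = 0.236, and 1.69 ± 0.90, adjusted p = 0.255).

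Collagen VI forms beaded filaments that anchor cells to the surrounding matrix, and its alpha1, alpha2 and alpha3 chains are needed together. Col6a3 nevertheless departed from its partners in type H. It measured 6.70, 6.44 and 6.39 log2 CPM in type H, 5.81, 5.07 and 3.52 in CD200-high, 5.11, 6.16 and 5.86 in arterial, and 1.06, 1.57 and 2.25 in sinusoid-labelled libraries. Type H lay above all other libraries, yet only the sinusoid-labelled comparisons were called: 4.88 ± 0.55 for type H (adjusted p = 4.62e-05) and 3.17 ± 0.55 for CD200-high (adjusted p = 0.00118), which became -1.15 and -2.11 under endothelial scaling, and 4.08 ± 0.55 for arterial (adjusted p = 0.000592), which became 0.04 and lost its call (adjusted p = 0.958). CD200-high minus type H was -1.71 ± 0.55 (adjusted p = 0.0621, and 0.0235 without CD200-high replicate 1). The type H mean of 6.51 exceeded the arterial mean of 5.71 by less than the size of the endothelial scaling shift (-1.98). Type H therefore falls below arterial under that scaling.

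Col6a1 was highest in arterial libraries, at 8.81, 9.43 and 9.31 log2 CPM, against 7.09, 7.77 and 6.52 in CD200-high libraries, 5.12, 2.42 and 6.51 in type H libraries, and 5.29, 5.61 and 5.17 in sinusoid-labelled libraries. Arterial libraries overlapped no other group. Type H was lower than arterial by a difference of -4.50 ± 0.76 (adjusted p = 0.00161), and arterial exceeded sinusoid-labelled by 3.83 ± 0.76 (adjusted p = 0.00731), which became -0.22 under endothelial scaling. CD200-high minus arterial was -2.05 ± 0.76 (adjusted p = 0.104, and 0.00559 without type H replicate 2).

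Col6a2 had 3295, 4988 and 2546 reads in arterial, 794, 1710 and 247 in CD200-high, 272, 2 and 489 in type H and 71, 219 and 280 in sinusoid-labelled libraries, and its single call was type H below arterial (-6.01 ± 1.52, adjusted p = 0.0157). That call was lost when only those 2 populations were fitted (adjusted p = 0.0602). Per kilobase of exon, Col6a3 minus Col6a1 was -3.78 ± 0.92 on the log2 scale in CD200-high, -4.92 ± 0.22 in arterial and -5.18 ± 0.71 in sinusoid-labelled libraries, but 0.13, 2.57 and -1.57 in the 3 type H libraries. Mural markers, summed over 11 genes, took 0.240 to 0.280% of reads in type H and 0.00597 to 0.0501% elsewhere, a sum carried by Kcnj8 (10.59 ± 0.11 log2 CPM in type H) and Abcc9 (10.06 ± 0.27), which encode subunits of a potassium channel. Of the 11 genes, 2 were higher and 5 lower in type H than in arterial, with a list median of -2.80. Pdgfrb, a receptor of pericytes, averaged 4.82 ± 1.65 in type H against 7.63 ± 0.38 in arterial, and Cspg4, a pericyte proteoglycan, -4.36 ± 1.22 against 4.68 ± 0.61. The part of mural transcripts in the Col6a3 level was not tested.

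Col6a5 and Col6a6 were present in some libraries only. Col6a5 had 0, 552 and 328 reads in arterial replicates 1, 2 and 3 and 189 in type H replicate 3, with 0 to 19 in every other library. Col6a6 had 0, 183 and 92 in the same arterial libraries and 71 in type H replicate 3, with 0 to 12 elsewhere. Both had 0 reads in replicate 1 of all 4 populations, and outside arterial both were found only in replicate 3. Neither was called in the F test (adjusted p = 0.412 and 0.360).

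Fibril-associated collagens sit on the surface of fibrils and link them to other matrix. Col22a1, known from tissue junctions, moved with collagen I: it measured 8.78, 8.83 and 8.24 log2 CPM in CD200-high, 4.91, 5.38 and 2.61 in arterial, and 5.28, 3.76 and 5.38 in sinusoid-labelled libraries, and had 0, 2 and 4 reads in type H. CD200-high exceeded type H (adjusted p = 1.11e-05), and it exceeded arterial by 4.32 ± 0.93 (adjusted p = 0.0112), while its excess of 3.81 ± 0.93 over sinusoid-labelled (adjusted p = 0.010) became -1.47 under endothelial scaling.

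Col14a1, of skin and tendon, took the opposite course. It had 253, 276 and 67 reads in arterial, 18, 31 and 15 in sinusoid-labelled, 0, 0 and 32 in type H and 0 in all 3 CD200-high libraries. Arterial was at least 42.4-fold higher than CD200-high, with 0 held at 3 reads per library (adjusted p = 0.00667), and it was higher than type H (adjusted p = 0.00996). A list of 9 fibroblast, tendon and periosteum markers was also highest in arterial, at 0.0415 to 0.0519% of reads against at most 0.0106% in any other library. Clec3b and Kera of that list were at 0 in CD200-high. Postn, the gene of that list with the smallest F-test p, went the other way. It averaged 5.52 ± 0.71 log2 CPM in CD200-high, 5.0 ± 1.2 in arterial, 2.02 ± 1.76 in sinusoid-labelled and -5.1 ± 0.2 in type H libraries. Reticular stroma and adipocyte markers (9 genes) took a larger share, 0.490 to 1.04% in arterial against at most 0.271% in any other library. The part of either list in the Col14a1 level was not tested.

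Col12a1 in CD200-high exceeded its type H level by 4.24 ± 1.01 (adjusted p = 0.0164). That call was lost at 0.0628 or 0.0506 without CD200-high replicate 1 or 2, and at 0.0965 with only those 2 populations fitted. Col12a1 was also lower in type H than in arterial by -4.19 ± 1.01 (adjusted p = 0.0121). Col16a1 averaged 3.55 ± 0.39 log2 CPM in CD200-high, 3.28 ± 0.19 in arterial, 2.31 ± 1.04 in type H and -0.33 ± 0.94 in sinusoid-labelled libraries (SD, n = 3). All 3 of its calls were against the last group, and all 3 reversed under endothelial scaling, to -1.39 for CD200-high, -0.43 for arterial and -3.38 for type H. The type H call was also lost without type H replicate 2 or 3 or sinusoid-labelled replicate 2 (adjusted p = 0.0519 to 0.0891). With only type H and sinusoid-labelled libraries fitted, that call was lost at 0.0862.

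Collagens II, IX and X form the fibrils and the hypertrophic-zone network of cartilage, and 1 or 2 libraries decided their levels in several groups. Col2a1 had 8752, 11130 and 3670 reads in arterial, 4086, 4584 and 1214 in CD200-high and 461, 1844 and 399 in sinusoid-labelled libraries, but 5058, 0 and 14 in type H. Col9a2 had 779, 839 and 279 reads in arterial, 365, 0 and 0 in type H, and 0 in every CD200-high and sinusoid-labelled library. Type H replicate 1 therefore held nearly all type H reads of collagens II and IX, and most cartilage markers followed. Col10a1 did not, with 11, 0 and 135 reads in type H. Acan, the core protein of cartilage proteoglycan, had 832, 0 and 1 reads in type H, Matn3 526, 0 and 0, Chad 543, 4 and 3, and Cnmd 428, 0 and 0. Sox9, the cartilage marker with the smallest F-test p, did not follow, with 2, 1 and 0 reads.

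Arterial libraries exceeded CD200-high in Col9a2 at least 138-fold (adjusted p = 0.00971) and sinusoid-labelled libraries at least 295-fold (adjusted p = 0.00543). Type H was lower than arterial in Col9a2 (-7.34 ± 2.04, adjusted p = 0.0247), which was lost at 0.0882 and 0.0915 without type H replicate 2 or 3 and at 0.0562 to 0.0659 without any 1 arterial library. The like difference of Col2a1 (-8.10 ± 2.30, adjusted p = 0.0273) was lost at 0.0626 to 0.0775 without type H replicate 2 or 3 or any 1 arterial library. For Col9a1 (-6.97 ± 2.18, adjusted p = 0.0419) it was lost with the mouse block at 0.0627, without CD200-high replicate 2 (0.0502) or sinusoid-labelled replicate 3 (0.0534), and at 0.0930 to 0.133 without type H replicate 2 or 3 or any 1 arterial library. With only type H and arterial fitted, the calls were lost for Col2a1 (0.0934), Col9a2 (0.0771) and Col9a1 (0.053). Col9a3, with 1434, 1435 and 544 reads in arterial, was called nowhere (F test adjusted p = 0.136), and its exons overlap Tcfl5 on the opposite strand.

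The chondrocyte list of 9 markers took 0.0348 to 0.0490% of reads in arterial, 0.00404 to 0.0286% in CD200-high, 0.0000286 to 0.0154% in type H and 0.000168 to 0.00378% in sinusoid-labelled libraries. Matn1, Ucma and Cnmd were at 0 in all CD200-high libraries, but Sox9 and Chad were not. Sox9 had 230, 218 and 16 reads in CD200-high and 177, 40 and 88 in arterial libraries. Chad had 706, 3478 and 242 in CD200-high and 1836, 1928 and 1032 in arterial libraries. The part of cartilage transcripts in the differences of the cartilage collagens was not tested.

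**Figure D5:**
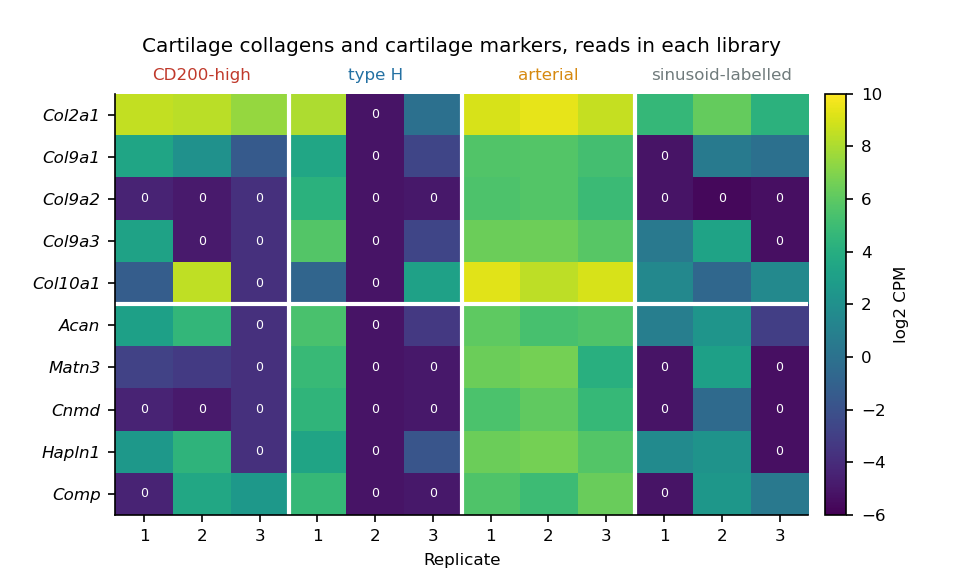
Log2 CPM of 5 cartilage collagen chains (above the white line) and 5 other cartilage genes (below it) in each library, with libraries at 0 reads marked by 0. All 10 genes have reads in each arterial library and in type H replicate 1, while type H replicate 2 has 0 reads for all 10. Col10a1 has only 11 reads in type H replicate 1, against 135 in replicate 3. Acan, Matn3, Hapln1 and Comp were not called in the F test (adjusted p = 0.0579 to 0.211). Sox9 and Chad, the chondrocyte markers with the smallest F-test p, are not shown and had 1 and 4 reads in type H replicate 2.

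Col10a1, the marker of hypertrophic cartilage, had 10410, 5480 and 4997 reads in arterial libraries. In CD200-high it had 4, 5114 and 0, so replicate 2 alone reached the arterial range, and that library also held more Acan (352 reads, against 92 and 0). Type H had 11, 0 and 135 reads and sinusoid-labelled libraries 49, 15 and 58. Type H was lower than arterial by -9.85 ± 2.70 (adjusted p = 0.0232), a call lost at 0.0539 to 0.0801 without type H replicate 1 or 2 or any 1 arterial library. CD200-high minus arterial was -7.77 ± 2.70 (adjusted p = 0.0847), and -11.43 (adjusted p = 0.00506) without CD200-high replicate 2. Its exons overlap Nt5dc1 on the opposite strand.

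Collagen VIII is a network collagen of vessel walls. Col8a1 measured 7.86, 8.56 and 8.27 log2 CPM in arterial, 6.09, 6.17 and 5.93 in CD200-high, 3.36, 2.45 and 4.63 in type H and 1.70, 4.54 and 3.67 in sinusoid-labelled libraries, and only the last 2 groups overlapped. Arterial exceeded sinusoid-labelled by 4.93 ± 0.66 (adjusted p = 0.000603), which became 0.88 and lost its call under endothelial scaling (adjusted p = 0.223), and type H was lower than arterial by -4.75 ± 0.66 (adjusted p = 0.000473). CD200-high exceeded type H by 2.58 ± 0.66 (adjusted p = 0.0240, lost at 0.0603 to 0.0762 without CD200-high replicate 1 or 2 or type H replicate 1 or 2), and its excess of 2.76 ± 0.66 over sinusoid-labelled (adjusted p = 0.00898) became -2.52 under endothelial scaling. CD200-high minus arterial was -2.17 ± 0.66 (adjusted p = 0.0529, and 0.00310 when only those 2 populations were fitted). Col8a2, its partner chain, had 0 to 265 reads and was not called (F test adjusted p = 0.140).

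Among transmembrane collagens, which stay in the cell membrane, Col13a1 had 1223, 847 and 353 reads in CD200-high, 47, 88 and 50 in arterial, 50, 70 and 100 in sinusoid-labelled and 0, 2 and 0 in type H libraries. CD200-high exceeded type H (adjusted p = 2.31e-05) and arterial (4.01 ± 0.91, adjusted p = 0.0138, and 0.0522 or 0.0574 without CD200-high replicate 1 or arterial replicate 1, and 0.0560 under endothelial scaling), and its excess of 4.37 ± 0.91 over sinusoid-labelled (adjusted p = 0.00389) became -0.91 under endothelial scaling. Col23a1 ranged from 13 to 92 reads and Col25a1 from 0 to 202, with 0 in replicate 2 of all 4 populations. Neither was called in the F test (adjusted p = 0.546 and 0.928).

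The last class was scarce everywhere and absent from the reads of type H. Col28a1 had 26, 134 and 83 reads in arterial, 8, 44 and 49 in CD200-high, 25, 14 and 18 in sinusoid-labelled libraries and 0 in type H, which arterial exceeded at least 36.4-fold (adjusted p = 0.00106), CD200-high at least 21.4-fold and sinusoid-labelled at least 5.51-fold. With a pseudocount of 1 CPM the last 2 calls were lost (adjusted p = 0.0593 and 0.314). Col26a1 had 54, 73 and 46 reads in arterial, 37, 0 and 0 in sinusoid-labelled and 0 in all CD200-high and type H libraries. Arterial exceeded type H at least 24.6-fold (adjusted p = 0.00685) and CD200-high at least 13.6-fold (adjusted p = 0.0195, and 0.0515 to 0.0580 without CD200-high replicate 1 or 2 or arterial replicate 2 or 3). Its call against sinusoid-labelled (5.37 ± 1.55, adjusted p = 0.0491) was lost under endothelial scaling (1.33, adjusted p = 0.491), with the mouse block at 0.0655 and in 11 of the 12 fits without 1 library, at 0.0610 to 0.189. Col7a1, of the anchoring fibrils of skin, had 27, 6 and 11 reads in arterial, 19, 9 and 0 in sinusoid-labelled and 0 in the other libraries. Arterial exceeded type H at least 6.12-fold (adjusted p = 0.0196), a call lost at 0.0504 to 0.0627 without type H replicate 1 or 2 or arterial replicate 1 or 3 and at 0.0629 with a pseudocount of 1 CPM.

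Ratios between chains of the same collagen were taken within each library. Per kilobase of exon, Col1a1 minus Col1a2 was 0.22 ± 0.04 on the log2 scale in CD200-high, 0.50 ± 0.10 in arterial and 0.58 ± 0.19 in sinusoid-labelled libraries (SD, n = 3), and -2.47, -0.20 and -0.41 in the 3 type H libraries, which had 40, 147 and 284 Col1a1 reads. Col4a1 minus Col4a2 was 0.36 ± 0.12 in arterial, 0.31 ± 0.13 in CD200-high and 0.23 ± 0.17 in type H libraries, and 2.39, 0.96 and 0.47 in sinusoid-labelled libraries, where Col4a2 had 53, 197 and 347 reads. Over all 12 libraries Col11a1 minus Col11a2 ranged from -1.68 to -0.33, the narrowest range of the 12 chain pairs compared, although type H held as few as 5 and 9 reads.

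Enzymes that fold, modify and cross-link collagen differed in the same comparisons. Of 19 genes of collagen folding and modification in the endoplasmic reticulum, 9 were higher and none lower in CD200-high than in arterial, 10 higher and 2 lower than in type H, and 16 higher and none lower than in sinusoid-labelled libraries, where the list median of 3.48 is smaller than the endothelial scaling shift. Of all genes, 4.75, 6.66 and 14.1% were called higher in CD200-high in these comparisons. Plod2, the lysyl hydroxylase of bone-type cross-links, averaged 8.29 ± 0.48 log2 CPM in CD200-high, 4.97 ± 0.32 in arterial, 4.35 ± 0.57 in sinusoid-labelled and 2.22 ± 0.24 in type H libraries. Plod1, another lysyl hydroxylase, was instead highest in type H, at 8.76 ± 0.08 against 8.07 ± 0.18 in CD200-high, an order that reverses under endothelial scaling. P4ha2, a prolyl hydroxylase subunit, averaged 6.76 ± 0.53 in CD200-high and -3.83 ± 2.13 in type H, where it had 7 reads in all.

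Among 12 processing and cross-linking genes, 8 were lower in type H than in CD200-high and 3 were lower in arterial, with none higher in either (6.66 and 4.75% of all genes were lower). Lox, the lysyl oxidase that starts cross-linking, averaged 10.55 ± 0.38 log2 CPM in CD200-high, 8.0 ± 0.31 in arterial, 6.4 ± 0.60 in sinusoid-labelled and 3.96 ± 0.70 in type H libraries. Pxdn, the peroxidasin that cross-links collagen IV, followed collagen IV instead, at 7.45 ± 0.12, 6.68 ± 0.69, 1.90 ± 1.35 and 8.17 ± 0.24 in that order. Its excess in CD200-high over sinusoid-labelled was 5.55 and in type H over sinusoid-labelled 6.27, each just above the endothelial scaling shift.

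All 9 basement membrane partners of collagen IV were called lower in sinusoid-labelled libraries than in each other population (4.86% of all genes were). The list median of the excess over sinusoid-labelled was 4.56 for arterial, 5.13 for CD200-high and 5.93 for type H. The medians of CD200-high and type H are smaller than the endothelial scaling shift. Nid1, nidogen, which bridges laminin and collagen IV, averaged 9.79 ± 0.16 log2 CPM in type H, 7.91 ± 0.25 in arterial, 7.45 ± 0.28 in CD200-high and 3.36 ± 0.66 in sinusoid-labelled libraries, and was lower in CD200-high than in type H by -2.35.

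All 8 fibril-associated proteoglycans and organizers were lower in type H than in CD200-high (6.66% of all genes were). Sparc, the matricellular protein that binds collagen I, averaged 15.01 ± 0.36 in CD200-high libraries, 12.07 ± 0.21 in type H libraries, 11.78 ± 0.14 in arterial and 11.12 ± 0.86 in sinusoid-labelled libraries. Dcn, decorin, averaged 10.87 ± 0.35, 1.44 ± 2.57, 9.28 ± 0.17 and 6.92 ± 1.10 in that order.

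Of 10 collagen receptors, 5 were lower in type H than in CD200-high (6.66% of all genes were) and none was higher. Itga1, the alpha subunit of a collagen-binding integrin, averaged 8.26 ± 0.37 log2 CPM in type H, 7.16 ± 0.37 in arterial, 7.15 ± 0.85 in CD200-high and 2.60 ± 0.52 in sinusoid-labelled libraries. Mrc2, the receptor that takes up collagen fragments, averaged 7.51 ± 0.49 in CD200-high and -1.42 ± 1.90 in type H. Lair1, an inhibitory collagen receptor of leukocytes, averaged 5.43 ± 0.56 in arterial, 3.79 ± 0.70 in sinusoid-labelled, 0.69 ± 3.27 in type H and -3.82 ± 0.59 in CD200-high libraries. Leukocyte markers (9 genes) took 1.39 to 1.99% of reads in arterial against 0.248 to 0.913% in the other libraries. Of the 9, 3 were called higher in arterial than in sinusoid-labelled libraries (8.09% of all genes were) and none lower. Ptprc was higher in arterial (7.41 against 6.54 log2 CPM). Laptm5 (9.43 against 10.13), Coro1a (8.66 against 8.85) and Cd79a (8.19 against 10.04) averaged lower in arterial than in sinusoid-labelled libraries. The part of leukocyte transcripts in the Lair1 level was not tested.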

How the data were processed

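RNA of 12 sorted-cell libraries was sequenced from amplified cDNA with reads of 150 bases. Per the submitters' processing notes, the tools were featureCounts, STAR, deepTools, Trimmomatic, SAMtools and R 4.3, and the genome build hg38, although the samples are mouse; annotation, strand setting and normalisation method were not given in the sources used here. The deposited values are log2 CPM with 0.5 read added to each count and an effective library size: undoing this gave whole reads for 100% of values within 0.01 read, with 7.33 to 21.6 M reads (M, 1e6 reads) per library, and depth limits what can be said of chains under about 100 reads. Counting floors of 3 reads cover counting error only. Folds given as at least a value divide the mean CPM of the higher population by that floor, so single libraries can lie lower.

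Genes with at least 10 reads at the mean effective size (0.630 CPM) in at least 3 libraries were kept (17086 of 17362). limma 3.58.1 in R 4.3.3 fitted all 12 libraries at once with a mean-variance trend, without a mouse term, and p-values were adjusted by Benjamini-Hochberg over all genes in each comparison. The procedure was tested on simulated data. Replicates of a population differed by 52.8 to 124.5 times sampling noise (chi-square per degree of freedom), so none was a duplicate; no source says how 6 mice were divided among the libraries, and p-values measure the spread between these libraries. The labels number mice 1 to 3 in each population, so same-numbered libraries can be paired by that label. The main fit left that pairing out, and the mouse block took it in as an alternative. Deviations of same-numbered libraries from population means correlated at -0.10 to 0.15 (median 0.03 over 9719 genes).

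The members, gene lists and comparisons were chosen with earlier results of these data known. Chains averaging at least 100 reads in their highest population (32 of 39) were described individually, at most 3 per class, those with the smallest F-test p, with full tests, and from each other list up to 4 genes with the smallest F-test p. Other cartilage genes, such as Acan and Matn3, were given beside the cartilage collagens. Lengths were exon unions of GENCODE M21 (all 39 matched), and promoters came from RefSeq. Chains not in the table were not analysed here, and 11 chains share exon bases with another gene. Alternatives were the mouse block, another pseudocount (1 CPM), no filter or a filter at 100 reads, no trend, CPM of total reads, endothelial scaling, fits of only the 2 populations compared, and leaving out each library; voom weights on the recovered reads were chosen after seeing the data.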

Additional observations from a re-analysis of the deposited data

How the results depend on the processing

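Of 95 chain calls in the 6 comparisons, 46 kept direction and side of the threshold in every alternative run, 73 in every one but endothelial scaling, and 79 in every fit without 1 library. Endothelial scaling reversed 23 calls and lost 11, and no other alternative reversed a call. The mouse number as a replicate block lost the 3 calls named above (arterial against sinusoid-labelled for Col26a1, 5.37; CD200-high against arterial for Col5a3, -3.59; type H against arterial for Col9a1, -6.97) and changed no other; with it 13, 13, 16, 17, 23 and 10 chains were called in the 6 comparisons and 25 in the F test.

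CD200-high against arterial gave 14 calls, 23 with voom weights (13 higher, 10 lower) and 9 to 19 without 1 library. Arterial against sinusoid-labelled gave 11, then 17 with voom weights and 19 with only those 2 populations. Type H against sinusoid-labelled gave 17, but 28, all lower, under endothelial scaling. The cause was not tested. Fits of only the 2 populations compared also lost calls. In type H against arterial these included Col2a1 (adjusted p = 0.0934), Col6a2 (0.0602), Col9a1 (0.053) and Col9a2 (0.0771). In type H against sinusoid-labelled they included Col3a1 (0.0644), Col5a1 (0.0506) and Col16a1 (0.0862). Others were Col12a1 in CD200-high against type H (0.0965), Col5a3 in CD200-high against arterial (0.0763) and Col26a1 in arterial against sinusoid-labelled (0.0908).

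Reversed under endothelial scaling in CD200-high against sinusoid-labelled were Col1a1 (-1.90), Col1a2 (-1.54), Col5a1 (-1.59), Col5a2 (-1.09), Col11a1 (-1.22), Col11a2 (-1.39), Col24a1 (-1.45), Col13a1 (-0.91), Col16a1 (-1.39), Col18a1 (-0.41), Col22a1 (-1.47), Col6a3 (-2.11) and Col8a1 (-2.52). In type H against sinusoid-labelled they were Col15a1 (-1.43), Col16a1 (-3.38), Col18a1 (-2.16), Col4a1 (-0.53) and Col6a3 (-1.15). In arterial against sinusoid-labelled they were Col16a1 (-0.43), Col18a1 (-0.92) and Col6a1 (-0.22), and the uncalled Col1a1 (-3.86), Col1a2 (-3.77) and Col5a2 (-3.10). Against arterial, the calls of Col4a1 reversed in CD200-high (-0.17) and in type H (-1.27), and so did the uncalled differences of Col4a2 (-0.11 and -1.14). Other uncalled differences also turned and are not all listed, among them Col18a1 and Col6a3 in type H against arterial. The 11 calls lost were those of Col11a1, Col13a1 and Col5a1 in CD200-high against arterial, of Col15a1 (1.11) and Col4a1 (0.58) in CD200-high and Col4a2 (0.52) in type H against sinusoid-labelled, and of Col15a1 (0.66), Col26a1 (1.33), Col3a1 (0.71), Col6a3 (0.04) and Col8a1 (0.88) in arterial against sinusoid-labelled. Without sinusoid-labelled replicate 2, arterial minus sinusoid-labelled was -0.17 for Col1a1 and -0.20 for Col1a2, and without replicate 1 it was 0.51 and 0.65. Without the mean-variance trend calls were lost in CD200-high against arterial for Col11a1 (adjusted p = 0.062) and Col5a3 (0.0747), in type H against arterial for Col2a1 (0.0564), Col4a1 (0.105) and Col9a1 (0.0634), in CD200-high against type H for Col8a1 (0.0534) and in arterial against sinusoid-labelled for Col26a1 (0.0564). The 2 planned count-model alternatives were not run. The deposited values are on the log2 scale, although whole reads could be recovered from them and were used for the voom fit.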
